A study of Mus musculus with 2 samples.

Results

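Mir204, Mir211 and Mir184 are miRNA genes known from the eye, and their reads were followed in the embryonic face of the mouse. They were chosen by symbol, as the entries of both deposited count tables that carry these GENCODE names, and make up 3 of the 1973 genes listed. Both libraries held microRNA-sized RNA (below 30 nt) from the embryonic facial prominence, the buds of mesenchyme and epithelium that build the face and jaws. The tissue came from healthy mouse embryos of strain B6NCrl at embryonic day 12.5, male and female pooled, with 120 embryos in replicate 1 and 88 in replicate 2. The labels name both as biological replicates of 1 group, with no treatment, mutant or second tissue, so every comparison is between genes or between these 2 pools. A pool averages over its embryos, and in such bulk RNA a change in the number of cells of a type and a change in RNA per cell cannot be told apart.

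A miRNA is cut from a hairpin transcript as a short strand that guides the silencing complex to messenger RNAs, mainly through its seed, the bases 2 to 8. Mir204 and Mir211 are paralogs that lie in introns of the ion channel genes Trpm3 and Trpm1. miR-204 is known from the retinal pigment epithelium, the ciliary body and the lens, and also from the choroid plexus of the brain. miR-211 is known from the retinal pigment epithelium and from melanocytes, the pigment cells that arise from the neural crest, where the pigment cell regulator Mitf drives its host Trpm1. miR-184 is known from the epithelium of the cornea and lens, and its sequence is unrelated to the other pair.

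The 5p strands of Mir204 and Mir211 are shown with both strands of Mir184 because they tell which members share a seed (capitals, 5′ to 3′, RefSeq on GRCm38.p6).
mmu-miR-204-5p: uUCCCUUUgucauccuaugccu
mmu-miR-211-5p: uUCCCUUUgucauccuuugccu
mmu-miR-184-3p: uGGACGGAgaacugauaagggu
mmu-miR-184-5p: cCUUAUCAcuuuuccagccagc
The 5p strands of Mir204 and Mir211 were both 22 bases long and identical at 21 of them. The sole difference was A17U, counted from 1 at the 5′ end of miR-204-5p, which lies outside the seed. Among 1738 mature mouse strands in the RefSeq table, 1 other had this seed, miR-7670-3p, and its gene Mir7670 had 1 count in replicate 1 and 0 in replicate 2. No other mature strand in that table had either seed of Mir184.

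The opposite arms of the related pair were less alike, and are shown for that reason.
mmu-miR-204-3p: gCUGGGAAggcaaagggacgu
mmu-miR-211-3p: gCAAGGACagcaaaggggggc
These 3p strands, of 21 bases each, differed at 7 positions, including the seed. The seed of miR-204-3p recurred in 1 other strand, miR-7684-5p, whose gene Mir7684 had 0 counts in both libraries. Taking 3 counts as the limit for a count of 0 allows up to 0.636 CPM and 0.506 CPM in replicates 1 and 2. CPM here is a gene's own-strand reads per 1000000 own-strand reads on all miRNA genes.

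Whole hairpins are shown because a gene's deposited count joins reads from anywhere on its hairpin (mature strands in capitals).
Mir204: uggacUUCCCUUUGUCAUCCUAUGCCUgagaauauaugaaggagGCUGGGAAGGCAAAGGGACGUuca
Mir211: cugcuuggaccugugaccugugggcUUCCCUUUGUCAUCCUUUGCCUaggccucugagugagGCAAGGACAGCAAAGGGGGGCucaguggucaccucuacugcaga
Mir184: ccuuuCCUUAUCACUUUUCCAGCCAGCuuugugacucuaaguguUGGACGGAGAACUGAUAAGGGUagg
The counts therefore do not say which arm the reads came from. The annotated hairpins were 68 bases long for Mir204, 106 for Mir211 and 69 for Mir184. The longest stretch that Mir204 and Mir211 shared was 17 bases, and neither shared more than 12 with any other of the 1005 RefSeq hairpins. Mir184 shared at most 11 bases with another hairpin. A full-length read of either related 5p strand thus differs from the other gene at 1 base, and a read cut short before that base does not. Reads with several mapping places, 26.0% of replicate 1 and 27.9% of replicate 2, were counted to no gene.

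The members lay on different chromosomes. Mir204 (ENSMUSG00000065507.2) is at chromosome 19, positions 22750605 to 22750672 on the plus strand of GRCm38 (the assembly that mm10 denotes). Mir211 (ENSMUSG00000065585.1) is at chromosome 7, positions 64205806 to 64205911 on the plus strand. Mir184 (ENSMUSG00000065596.1) is at chromosome 9, positions 89802260 to 89802328 on the minus strand. In the transcript with the most exons of each host (27 exons in both), Mir204 lay in intron 6 of Trpm3 and Mir211 in intron 6 of Trpm1, on the host's strand. That intron was 33462 bases long in Trpm3 and 3682 in Trpm1. Mir204 was intronic in all 18 annotated Trpm3 transcripts that span it, and Mir211 in all 12 such Trpm1 transcripts.

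Mir184 overlapped no annotated gene. Its nearest neighbour was the noncoding gene 1700017I07Rik on the opposite strand, 541 bases away, and the nearest protein-coding gene was Ankrd34c on its own strand, 63784 bases away. The miRNA genes next to the members on their chromosomes had few or no reads. The nearest listed miRNA genes on either side were Gm23061 and Mir1192 for Mir204, Mir344i and Mir6416 for Mir211, and Gm26377 and Mir6386 for Mir184. The closest of these, Mir6416, lay 44071 bases from Mir211, and the counts of all of them ranged from 0 to 3.

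**Figure D1:**
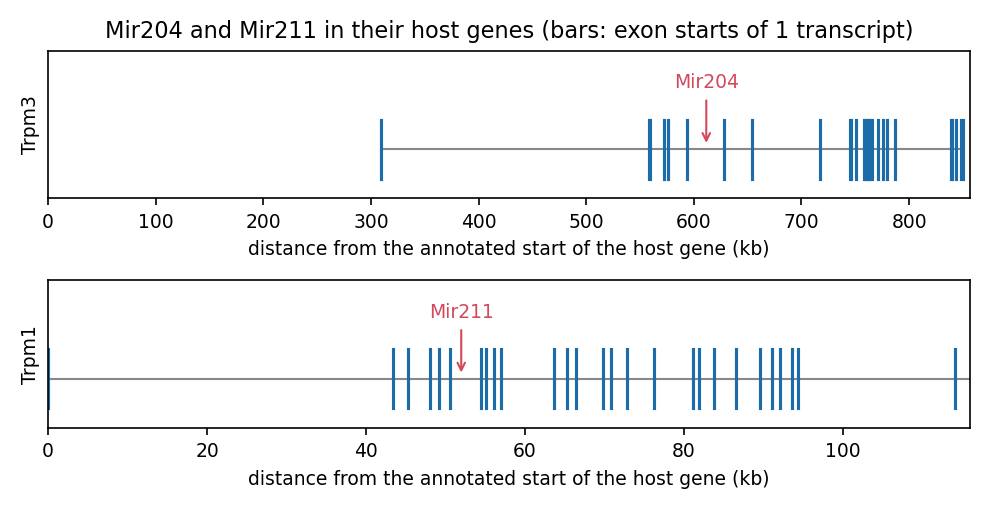
Position of Mir204 in Trpm3 (top) and of Mir211 in Trpm1 (bottom); the horizontal axis is the distance from the annotated start of the host gene in kilobases, the grey line is the transcript with the most exons, blue bars are its exon starts and the red arrow is the miRNA gene. Both genes sit in intron 6 of a transcript with 27 exons.

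The deposited tables hold 4719337 own-strand reads on miRNA genes in replicate 1 and 5929220 in replicate 2, so 1 read is worth 0.212 and 0.169 CPM. The 3 genes were measured well above that limit and 0 of their reads lay on the opposite strand. Genes with 10 or more counts in each library were taken as detected, and these were 395, all 3 members among them. All 6 listed genes of the labelled tissue's mesenchyme and cartilage were detected, from Mir214 of skeletal mesenchyme at 45770 ± 198 CPM (SD, n = 2) and Mir140 of cartilage at 14833 ± 518 CPM down to Mir199a-2 at 250 ± 39.7 CPM and Mir199a-1 at 27.3 ± 4.77 CPM.

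Mir204, which keeps the pigment epithelium differentiated in the adult eye, was the highest member. It had 2638 counts, or 559 CPM (exact Poisson interval 538 to 581), in replicate 1 and 5189 counts, or 875 CPM (852 to 899), in replicate 2. Its mean was 717 ± 224 CPM (SD, n = 2), 5.87 times the median detected gene of 122 CPM. Replicate 2 was the higher library, and the counting intervals of both did not overlap. By level Mir204 stood at place 121 of the 395 detected genes in replicate 1 and at place 104 in replicate 2. The next gene above it by mean level was Mir375, a neuroendocrine miRNA gene, at 745 ± 14.2 CPM, and the next below was Mirlet7f-2 of the let-7 family at 707 ± 13.0 CPM.

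Mir211 had 1210 counts in replicate 1 and 3742 in replicate 2. These are 256 CPM (242 to 271) and 631 CPM (611 to 652), with a mean of 444 ± 265 CPM (SD, n = 2). Replicate 2 was again the higher library with no overlap of counting intervals, and the SD was 59.7% of the mean. Its place among detected genes moved from 152 in replicate 1 to 119 in replicate 2. By mean level it lay between Mir181a-2 (447 ± 410 CPM) and Mir16-2 (435 ± 48.2 CPM).

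Mir184 was the lowest member, with 355 counts in replicate 1 and 975 in replicate 2. These are 75.2 CPM (67.6 to 83.5) and 164 CPM (154 to 175), with a mean of 120 ± 63.1 CPM (SD, n = 2). The library order was the same as for the other members. Mir184 stood at place 223 and then 175, close to the median detected gene. Its neighbours in mean level were Mir7-1, a neuroendocrine gene, at 122 ± 0.768 CPM and Mir5099 at 119 ± 5.81 CPM. For each of the 3 members, the gap to either neighbour was smaller than the larger SD of the pair, so these places in the ranking are not resolved. Of the neighbours, Mirlet7f-2, Mir181a-2, Mir16-2 and Mir7-1 are each 1 of several numbered genes. Their counts may leave out reads with several mapping places.

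**Figure D2:**
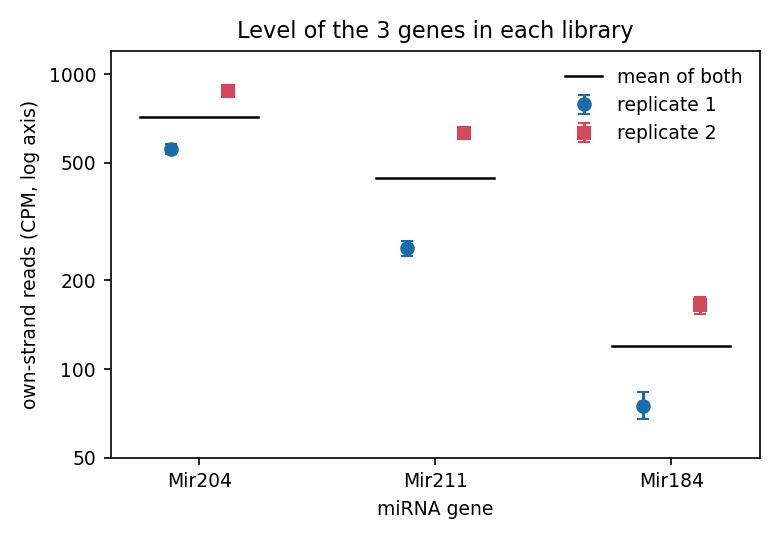
Level of Mir204, Mir211 and Mir184 in CPM on a log axis, for replicate 1 (circles) and replicate 2 (squares), with exact 95% Poisson intervals as bars and the mean as a black line. Every member is higher in replicate 2, from 559 to 875 CPM for Mir204, 256 to 631 CPM for Mir211 and 75.2 to 164 CPM for Mir184.

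The order Mir204, Mir211, Mir184 held within each library. In replicate 1 the 3 genes held 62.8%, 28.8% and 8.45% of their joint 4203 counts, and in replicate 2 they held 52.4%, 37.8% and 9.84% of 9906. Mir204 in replicate 1 (559 CPM) nevertheless lay below Mir211 in replicate 2 (631 CPM), so the ranges of these genes overlap across pools, whereas Mir184 stayed below both in every pairing. Per base of hairpin the mean level was 10.5 CPM for Mir204, 4.19 CPM for Mir211 and 1.74 CPM for Mir184, the same order. All mature strands of the 3 genes were 21 or 22 bases long.

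The members did not keep a fixed proportion to each other. Counts of Mir211 were 0.459 times those of Mir204 in replicate 1 (exact interval 0.428 to 0.491) and 0.721 times in replicate 2 (0.691 to 0.752). The genes with a strand that carries the seed of miR-204-5p, Mir204, Mir211 and Mir7670 with its single count, summed over both arms to 816 CPM and 1506 CPM in replicates 1 and 2. The ratio of Mir184 to Mir204 also differed, at 0.135 (0.120 to 0.150) and 0.188 (0.175 to 0.201). That of Mir184 to Mir211 was 0.293 (0.260 to 0.331) and 0.261 (0.243 to 0.280), with overlapping intervals. Relative to Mir204, then, both other genes took a larger part in replicate 2 by more than counting error, while Mir184 and Mir211 were not told apart from a constant proportion.

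Between the pools, Mir211 and Mir184 differed at least 2-fold, while Mir204 differed less. Mir211 was 2.45-fold higher in replicate 2 (exact interval 2.30 to 2.62, log2 ratio 1.29, exact binomial adjusted p = 1.02e-182). Mir184 was 2.18-fold higher (1.93 to 2.47, log2 ratio 1.12, exact binomial adjusted p = 5.63e-39), with an interval that reaches below 2. Mir204 was 1.56-fold higher (1.49 to 1.64, log2 ratio 0.64, exact binomial adjusted p = 3.14e-79). The p-values compare the reads of these 2 libraries and cover counting error alone, not the spread between pools.

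With calls that needed an adjusted p below 0.05 and a 2-fold difference, 2 of the 3 members were called higher in replicate 2, against 4 of all 395 detected genes (1.01%). A further 12 genes (3.04%) were called higher in replicate 1, which makes 16 in either direction (4.05%). The other genes called higher in replicate 2, named after their values were seen, were Mir193a with 19 and 54 counts and Gm23134 with 34 and 91 counts. When at least 100 counts were required in both libraries, 2 of 277 genes (0.722%) were called higher in replicate 2, and these were Mir211 and Mir184. Without a limit on size, all 3 members differed beyond counting error. They were among 107 of the 395 detected genes that were so higher in replicate 2 (27.1%). A difference beyond counting error, such as counting intervals that do not overlap, was thus common.

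Whether the gaps exceed the spread between pools depends on the spread assumed. The common biological coefficient of variation over detected genes was 0.190. It was estimated from these same 2 libraries taken as 1 group, members included, so it already contains the gaps in question. Of the fixed values below, 0.2 is the nearest to it. Mir204 was called at neither of them, since its log2 ratio of 0.64 lay below the 2-fold limit. In edgeR's exact test its adjusted p was 0.0316 at 0.1, and its unadjusted p was 0.121 at 0.2. In edgeR's exact test with that coefficient fixed at 0.1, Mir211 (adjusted p = 1.43e-07) and Mir184 (adjusted p = 3.80e-05) were called, among 14 of 395 genes (3.54%). Fixed at 0.2, 2 genes were called (0.506%), 20 had an unadjusted p below 0.05 and 0 of the called genes were members, with an edgeR adjusted p of 0.267 for Mir211 and 0.456 for Mir184 (unadjusted exact p = 0.00202 and 0.00821).

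Mir211 and Mir184 varied more between the pools than most genes, and Mir204 less so. By the size of the log2 ratio in either direction, Mir211 stood at place 7 of the 395 detected genes, Mir184 at place 12 and Mir204 at place 49. With 2 libraries, the SD relative to the mean follows from this ratio apart from library scaling, so it is no separate measure. An SD at least as large relative to the mean was found in 1.52%, 2.78% and 12.2% of detected genes, the member itself included. By the signed ratio, with the highest in replicate 2 first, Mir211 stood at place 1, Mir184 at place 3 and Mir204 at place 11. Among the 54 detected genes besides the members within 2-fold of the mean level of Mir211, 1 had an absolute log2 ratio as large, and 0 had one as large in the same direction. For Mir184 the counts were 1 and 0 of 87 genes, and for Mir204 they were 2 and 0 of 54. Across all detected genes the median absolute log2 ratio was 0.23, and 197 were higher in replicate 2 against 198 in replicate 1.

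**Figure D3:**
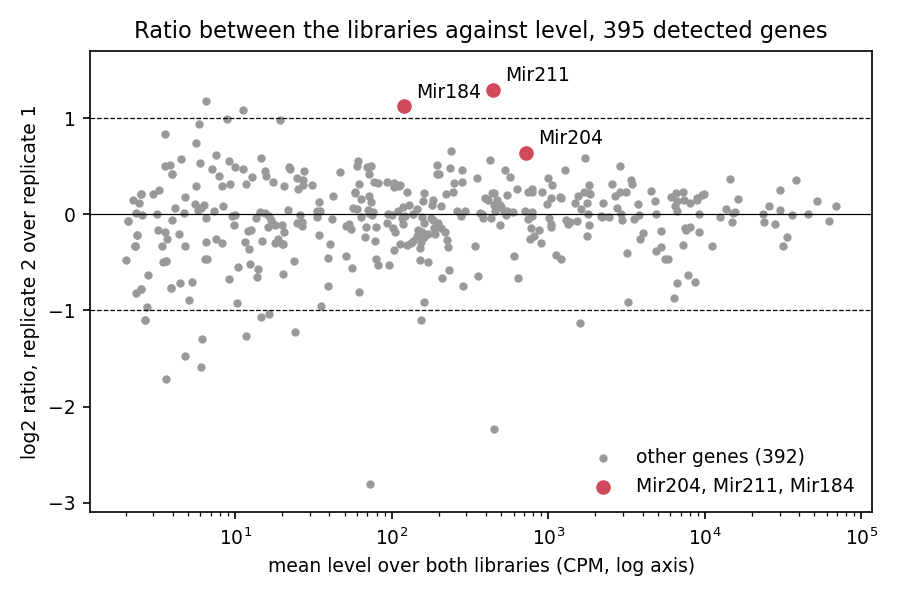
Ratio between the libraries (vertical axis, log2, replicate 2 over replicate 1) against the mean level in CPM (horizontal log axis) for the 395 detected genes; grey points are 392 other genes, red points the members, and dashed lines mark a 2-fold difference. Mir211 (1.29) is the highest point, Mir184 (1.12) is next among genes above 50 CPM, and Mir204 (0.64) lies above all 54 other genes (members left out) within 2-fold of its level.

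Genes of similar pattern were sought by a log2 ratio at least that of Mir204 and a mean of at least 50 CPM. The only gene found besides the members was Mir451a, an erythroid miRNA gene. It had 186 and 294 CPM, a log2 ratio of 0.66 (exact interval 0.54 to 0.78). The other listed erythroid genes did not share this ratio, with a log2 ratio of 0.33 for Mir144 and -0.31 for Mir486. With 2 libraries, likeness means no more than a ratio of similar size. Of all 11 detected genes with a ratio at least that of Mir204 (2.78%), the 7 others lay below 20 CPM. Among these, Mir193a (log2 ratio 1.17), Gm23134 (1.09) and Mir133b (0.98) were closer to Mir211 and Mir184 in ratio than Mir451a was.

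Other miRNA genes known from eye tissue had a median ratio near that of all detected genes. Of 15 further genes measured on 3 eye lists, 11 were detected, 6 had higher values in replicate 2 and 5 in replicate 1, with a median log2 ratio of 0.02, against -0.003 over all detected genes. By the exact binomial test 0 were called higher in replicate 2 (1.01% of all detected genes) and 1 higher in replicate 1 (3.04% of all), counts too small to set the list apart from all genes. The photoreceptor and sensory cluster ran from 12397 to 9896 CPM for Mir183, from 3616 to 3910 CPM for Mir96 and from 15378 to 15659 CPM for Mir182, all within 2-fold. These genes also serve other sensory cells, so their level is not one of the eye alone. The lists of neural retina and of cornea and skin likewise hold genes of brain and skin. None of the 3 lists therefore measures the amount of eye tissue in a pool.

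Of the neural retina list, Mir181a-1 (2157 ± 12.6 CPM) and Mir181b-2 (3154 ± 369 CPM) were the highest. Mir9-3 had 79 and 67 counts. The 3 Mir124a genes, the main neuronal miRNA genes of retina and brain, had at most 4 counts in a library. Mir124a, Mir9, Mir181a and Mir181b each have several genes of near-identical sequence, so their counts are uncertain. The gene called higher in replicate 1 was Mir181a-2 (737 and 157 CPM). Of the epithelial genes of cornea and skin, Mir205 (8883 ± 682 CPM), Mir203 (6070 ± 544 CPM) and Mir31 (205 ± 14.0 CPM) had log2 ratios from -0.14 to 0.18.

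A list of miRNA genes that act on Mitf, the regulator above Trpm1 in pigment cells, was detected in full. Its 8 genes had 0 calls by the exact binomial test, against 4.05% of all detected genes, 4 values higher in replicate 2 and a median log2 ratio of -0.01. Mir137, which represses Mitf, stood at 794 and 784 CPM. Mir148b had the highest ratio of the list, with 167 and 224 CPM (log2 ratio 0.42), and Mir101a the lowest, with 176 and 128 CPM (log2 ratio -0.47).

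Markers of other tissues that a dissected face could hold differed in direction between the pools. Genes at Hox loci, known from trunk and hindbrain, had 5 of 5 detected genes higher in replicate 2 (median log2 ratio 0.50), and their summed level was 1310 and 1768 CPM. The erythroid list had 2 of 3 higher (223 and 331 CPM summed). Most of that sum was Mir451a (186 and 294 CPM), and Mir486 went the other way (22.0 and 17.9 CPM). The striated muscle list had 3 of 5 higher (1187 and 1563 CPM) and the epithelial identity list 4 of 5 (16720 and 19980 CPM). Neuron genes had 0 of 8 higher (948 and 827 CPM), neuroendocrine genes 1 of 4 (1016 and 996 CPM), and mesenchyme and cartilage genes 4 of 6 (64669 and 64166 CPM). Of the 36 detected genes on these lists, 0 were called higher in replicate 2 by the exact binomial test, against 1.01% of all detected genes. Called higher in replicate 1 was 1 gene, Mir208a of heart muscle (16.5 and 6.91 CPM, log2 ratio -1.26), against 3.04% of all detected genes. On the same muscle list Mir208b had a log2 ratio of -0.81, Mir206 one of 0.46 and Mir133b one of 0.98. The part of these tissues in the gap of the members was not tested. Mir124a-1, Mir9-2 and Mir133a-2 were at 0 in both libraries. Each is 1 of several numbered genes of its kind, and reads with several mapping places were counted to no gene. A count of 0 here therefore does not show that the mature strand was absent. The neuron, neuroendocrine, Hox, Mitf and mesenchyme lists also hold such numbered genes, so their counts share this limit.

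**Figure D4:**
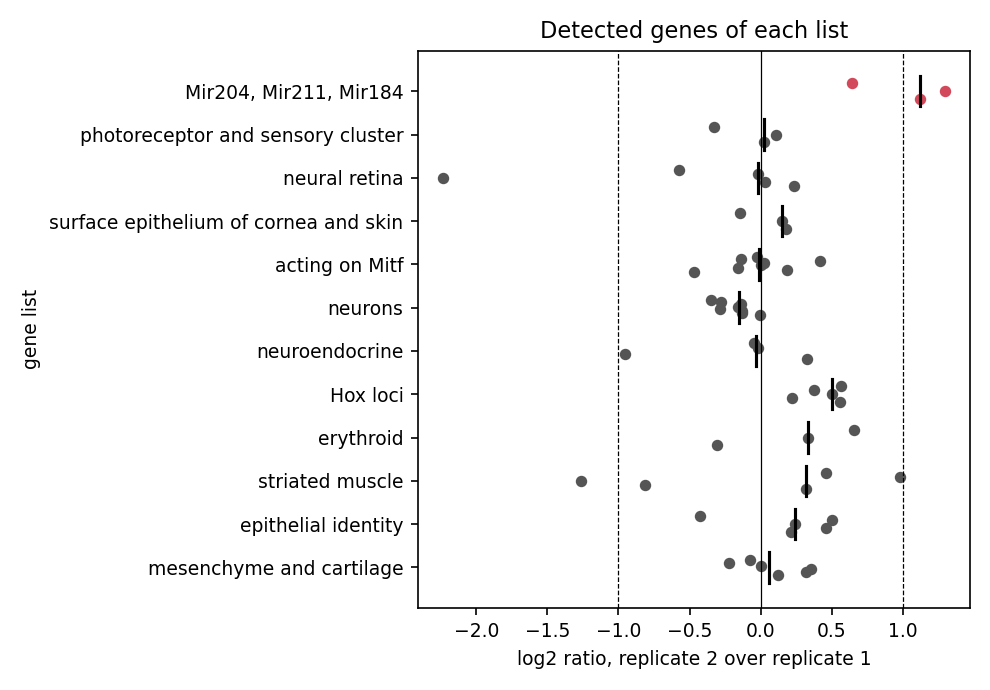
Log2 ratio of replicate 2 over replicate 1 (horizontal axis) for the detected genes of each list (points; one row per list), with the list's median as a vertical black bar and dashed lines at a 2-fold difference. The median of Mir204, Mir211 and Mir184 is 1.12, that of the Hox loci 0.50 and that of the neurons -0.15.

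The annotated starts of both host genes were searched for the core of the Mitf binding site, since Mir204 and Mir211 lie in hosts of the same family. Any part of the hosts or of Mitf in the gap between the pools was not tested. Reads of the hosts' messenger RNA were not analysed here. The search covered windows from 250 bases before to 50 after each RefSeq start on GRCm38.p6, with 2 starts for Trpm1 and 2 for Trpm3, all before the miRNA gene. CATGTG on either strand (CACATG on the other) was in 14.2% of 32851 such windows, its longer form TCATGTG, which contains it, in 3.77%, and CACGTG, its own reverse complement, in 7.15%. Both Trpm1 windows held 1 CATGTG. The first also held TCATGTG. In the second the CATGTG lay after the start, and a CACGTG lay before it, whereas neither Trpm3 window held any of them.

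The match before each Trpm1 start is shown with 20 bases on each side, with the motif in capitals.
Trpm1 first start, chr7:64153674-64153719, plus strand: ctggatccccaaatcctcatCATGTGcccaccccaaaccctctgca
Trpm1 second start, chr7:64185210-64185255, plus strand: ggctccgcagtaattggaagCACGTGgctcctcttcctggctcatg
The first match ends 135 bases before its start, and the base before the capitals completes TCATGTG. The second ends 223 bases before its start. Mir211 lies 51971 bases after the first start and 20347 after the second, and Mir204 lies 611559 and 302397 bases after those of Trpm3. A match of letters describes the window and does not show binding.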

How the data were processed

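Small RNA was sequenced from 2 pools of facial prominences. For each library the authors deposited raw counts of reads per miRNA gene on mm10 with GENCODE M4, per the library descriptions, neither scaled nor merged over libraries. The aligner, counter, trimming and mismatch setting are not given in the sources used here. The 4 entries for reads assigned to no gene were left out of the library sizes; ambiguous reads numbered 0. Identifiers were matched without their version to GENCODE M21 (GRCm38), which named 1894 of 1973.

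CPM is the own-strand count per 1000000 own-strand counts on genes. Detection required at least 10 counts in both libraries (395 genes). Ratios used TMM library sizes (edgeR 4.0.16, R 4.3.3, factors 0.998 and 1.002). Each detected gene was tested with a two-sided exact binomial test, adjusted over all 395 by Benjamini-Hochberg. A call needed an adjusted p below 0.05 and a 2-fold difference. With 1 library against 1, edgeR's quasi-likelihood test has no residual degrees of freedom. In a simulation of 395 genes, 200 were given a 3-fold difference, and 97.5% of these were found. Of the genes left without a difference, 0 were called. The simulated counts held counting error alone, without spread between pools. The simulation therefore does not tell how often real pools would give false calls. Intervals are exact at the 95% level (Poisson for levels, Clopper-Pearson for shares and ratios, SciPy 1.17.1) and cover counting error only. Alternatives were the strand, the scaling (DESeq2 1.42.0 size factors, unscaled CPM, all reads), the count minimum (0 or 100), a fixed coefficient of variation in edgeR's exact test, leaving out a library, and levels per hairpin base.

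Genes named are the members, the next genes in level and position, seed sharers, genes of the fixed lists (up to 4 each), and detected genes of at least 50 CPM with a ratio at least that of the lowest member. Named outside this rule after their values were seen are Mir193a and Gm23134, and, as markers near or at 0, the Mir124a genes, Mir9-2 and Mir133a-2. The members and lists were chosen with earlier results of these data known.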

Additional observations from a re-analysis of the deposited data

How the results depend on the processing

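Under the 9 alternatives for the ratio between libraries, all 3 genes kept a higher value in replicate 2. Mir204 was called under none of them. With the coefficient of variation fixed at 0.2 or 0.4 in edgeR's exact test, Mir211 (log2 ratio 1.29) and Mir184 (1.12) were no longer called, and the 16 genes called in either direction (4.05%) became 2 and 0. At 0.4, 2 genes had an unadjusted exact p below 0.05. With a minimum of 100 counts 6 of 277 genes were called. Scaling by all reads moved the median log2 ratio of all detected genes from -0.003 to 0.17 and the split of calls from 4 higher and 12 lower in replicate 2 to 7 and 8. It put Mir204 at a mean of 318, Mir211 at 199 and Mir184 at 53.7 reads per 1000000, since the total is larger. Per base of hairpin, Mir211 over Mir204 was 0.294 and 0.463 and Mir184 over Mir211 0.451 and 0.4003 in replicates 1 and 2, because the Mir211 hairpin is longer. Without replicate 1 or 2 the levels ranged from 559 to 875 CPM for Mir204, 256 to 631 CPM for Mir211 and 75.2 to 164 CPM for Mir184. No paired analysis was possible because both libraries belong to 1 group. Depth limits little here, since the lowest member count was 355, whereas the number of pools does. The libraries also differed in mapping, with 25.7% of reads unmapped in replicate 1 and 19.4% in replicate 2. Own-strand reads on genes were 41.3% and 46.3% of all reads. Any part of this in the gap between the pools was not tested.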
